A study of Bos taurus with 19 samples.

Results

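The 10 genes described here mark smooth muscle cells and pericytes, the contractile cells of the outer vessel wall and of the follicle wall, and they were followed through the theca interna of bovine ovarian follicles. They are ACTA2, MYH11, TAGLN, CNN1, SMTN, LMOD1, DES, PLN, RGS5 and PDGFRB. Every probe set whose single gene symbol was one of these was taken, which gave 10 of the 9156 genes with such a probe set and 12 of the 24127 probe sets on the array, 3 of them for PLN and 1 for each other gene. The theca interna is the vascularized, androgen-producing layer outside the follicular basal lamina, and each of the 19 arrays held RNA of this layer after the granulosa cells had been scraped off. The follicles came from non-pregnant heifers after slaughter and fell into 4 groups, namely 5 small atretic (degenerating) follicles, 4 large healthy follicles, 5 small healthy follicles with rounded basal granulosa cells and 5 small healthy follicles with columnar ones. Small follicles measured 3 to 5 mm and large follicles more than 9 mm across. The sample records tie the RNA preparation to the group, with Trizol and RNeasy columns for large follicles, RNeasy mini columns for small healthy follicles and RNAqueous Micro columns for atretic follicles. They also give 2 to 5 µg of RNA for healthy follicles and 250 ng for atretic ones. Follicle type and RNA preparation therefore cannot be told apart, except that rounded and columnar follicles are recorded with the same preparation. Nothing in the records says that the follicles of a group came from separate animals, and the p-values therefore measure the spread between follicles.

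Smooth muscle contracts when calcium, through calmodulin, activates myosin light chain kinase, which lets smooth muscle myosin pull on actin filaments. Pericytes sit on capillaries under the endothelium and depend on platelet-derived growth factor from it. In the ovary, smooth muscle is known from the walls of arterioles and from the theca externa, which lies just outside the layer sampled here, while the capillaries of the theca interna carry pericytes. The arrays measured pieces of tissue, in which fewer cells of a type and less RNA per cell cannot be told apart.

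All values are log2 signals as deposited, with 1 decimal, and a difference of 1 is 2-fold. A probe set was tested when some follicle type in the comparison had signals over 3 on 50% or more of its arrays. It passed at an adjusted p under 0.05 in limma, with Benjamini-Hochberg adjustment over all probe sets tested, and was called when it also differed at least 2-fold. All 12 member probe sets were tested in all 4 comparisons, and each had a median above 3 in every group. The signal of one probe set cannot be set against that of another, since each binds its RNA with its own strength, so only the same probe set is compared between follicles.

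Markers of the labelled tissue were present, with 6 of 6 steroidogenic theca genes above 3 on at least 10 of the 19 arrays. Of the other lists, 8 of 9 endothelial genes, 9 of 10 immune genes and 5 of 8 granulosa genes were also above 3 on that many arrays. Among 7 skeletal muscle genes only ACTA1 and CKM were, and MYL1, TNNT3 and MYOD1 exceeded 3 on 0 arrays. Among 5 cardiac muscle genes 4 were, with MYH7 at 7.7 to 8.9 and TNNI3 at 6.7 to 9.4, while TNNT2 stayed at 2.1 to 2.4. The bacterial poly-A control RNAs differed with the group, with a mean over 24 probe sets of 4.78 in small atretic, 5.88 in large healthy and 4.57 in small healthy follicles, while the 3' minus 5' signal of GAPDH averaged 0.46 in small atretic, 0.50 in large healthy and 0.45 in small healthy follicles. The same measure for actin varied more between arrays. It averaged 1.14 (0.7 to 1.8) in small atretic, 1.15 (0.8 to 1.7) in large healthy and 1.32 (1 to 2.2) in small healthy follicles. The medians of the arrays lay between 3.8 and 3.9.

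In large against small healthy follicles, 3 of the 10 genes were higher and 0 were lower, counting a gene when any of its probe sets passed. By its brightest probe set alone, PLN did not pass. DES, the intermediate filament of muscle cells, LMOD1, an actin filament nucleator of smooth muscle, and PLN, the inhibitor of the calcium pump of the sarcoplasmic reticulum, were the genes that passed. They gave 4 of the 12 member probe sets as higher, where 2.59% of the 15570 probe sets tested passed in that direction. Called were 2 of the 12, against 0.629% of all. The members were chosen with earlier results known, and the paper lists DES and PLN as higher in large follicles of this series. These shares therefore lend the list no independent support. The median difference over the member probe sets was 0.71, whereas the median over all probe sets tested was -0.01. The member probe sets that passed lay near the detection limit of 3 in small healthy follicles. Their means there were 3.68 for DES, 4.13 for LMOD1, and 3.48 and 3.55 for the PLN probe sets.

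DES had signals of 5.9, 4.2, 4.9 and 4.7 in large healthy follicles, whereas in the 10 small healthy follicles it ran between 3.2 and 4.3 with a median of 3.65. Of the large follicles, 3 of 4 were above every small healthy follicle. The difference was 1.25 ± 0.25 (SE), 2.37-fold, with an adjusted p of 0.0187 in limma, and an exact two-sided permutation test over the 1001 splits gave p = 0.002. Large follicle 1 was the highest, and without it the difference was 0.92 (adjusted p = 0.0272). DES did not pass against the 5 rounded follicles alone (1.15, adjusted p = 0.189) or against the 5 columnar ones alone (1.35, adjusted p = 0.0687).

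LMOD1 had signals of 5.3, 4.8, 4.8 and 4.5 in large healthy follicles, against a lowest value of 3.9, a median of 4.1 and a highest of 4.5 in small healthy follicles. The lowest large follicle equalled the highest small one, and the other 3 were above all small healthy follicles. The difference of 0.72 ± 0.13 (SE) had an adjusted p of 0.0111 in limma. It also missed the threshold against the rounded follicles alone (0.69, adjusted p = 0.156) and the columnar follicles alone (0.75, adjusted p = 0.0591).

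The 3 probe sets of PLN did not give the same answer between large and small healthy follicles. Probe set Bt.28162.3.S1_at had signals of 4.9, 4.7, 4.6 and 4.4 in large healthy follicles and a range of 2.8 to 4.2, with a median of 3.45, in small healthy ones. Every large follicle was above every small one, and the difference of 1.17 ± 0.20 (SE), 2.25-fold, had an adjusted p of 0.00885 in limma. The exact permutation p of 9.99e-04 is the smallest that 1001 splits can give.

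Probe set Bt.28162.1.S1_at had 4.5, 4.1, 4.3 and 4.1 in large healthy follicles and ran from 2.9 to 4.0 around a median of 3.5 in small healthy follicles. These groups did not overlap either, and the difference was 0.70 ± 0.17 (SE) with an adjusted p of 0.0358 in limma, but it no longer passed in 12 of the 22 alternatives that could be run, including the omission of any 1 of the 4 large follicles. Groups without overlap in this direction were found for 1.09% of all probe sets tested.

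The brightest PLN probe set, Bt.28162.2.A1_at, had 6.7, 5.4, 5.4 and 5.5 in large healthy follicles, against a range of 4.8 to 6.0 and a median of 5.6 in small healthy follicles. Only large follicle 1 stood above the small ones. The difference of 0.26 (95% interval -0.24 to 0.76) did not pass (adjusted p = 0.505), and without large follicle 1 it was -0.06.

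**Figure D1:**
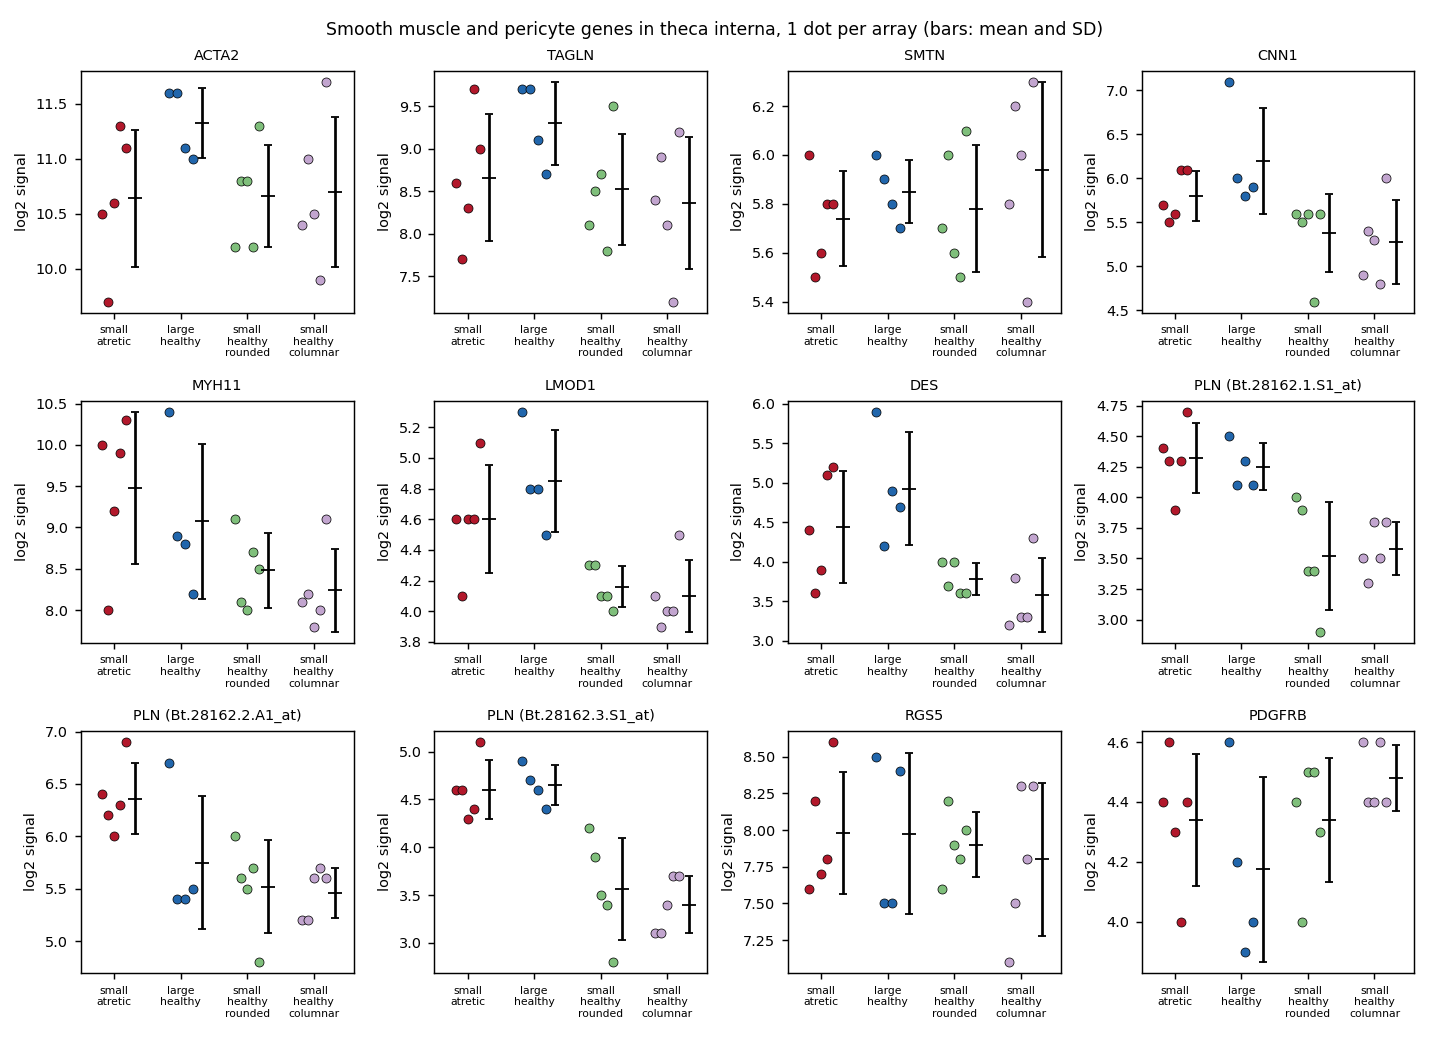
Log2 signal of the 12 member probe sets, 1 dot per array, in small atretic, large healthy, small healthy rounded and small healthy columnar follicles, with the vertical bars giving mean and SD and each panel having its own axis. DES in large healthy follicles runs from 4.2 to 5.9 and MYH11 in atretic follicles from 8.0 to 10.3, and CNN1 in large healthy follicles has 1 array at 7.1 with the others at 5.8 to 6.0.

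The other 7 genes did not pass between large and small healthy follicles. CNN1 encodes calponin, which binds actin and slows the myosin motor. It had signals of 7.1, 6.0, 5.8 and 5.9 in large healthy follicles and lay between 4.6 and 6.0, with a median of 5.45, in small healthy ones. Only large follicle 1 was above all small follicles, and the difference was 0.87 (95% interval 0.32 to 1.42, adjusted p = 0.0747), or 0.57 without that follicle.

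TAGLN, the actin-bundling protein transgelin, had 9.7, 9.7, 9.1 and 8.7 in large healthy follicles and 7.2 to 9.5, with a median of 8.45, in small healthy ones. The difference was 0.86 (95% interval 0.14 to 1.58, adjusted p = 0.145). ACTA2, smooth muscle alpha-actin, had 11.6, 11.6, 11.1 and 11 in large healthy follicles. In small healthy follicles its signal ran from 9.9 to 11.7 around a median of 10.65, so that the large follicles lay within the range of the small ones, and the difference was 0.65 (95% interval 0.07 to 1.22, adjusted p = 0.165).

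MYH11 encodes the smooth muscle myosin heavy chain, the motor of the contractile apparatus. It had 10.4, 8.9, 8.8 and 8.2 in large healthy follicles and 7.8 to 9.1, median 8.15, in small healthy ones. Large follicle 1 alone was above the range of the small follicles. The difference of 0.72 (95% interval 0.01 to 1.42, adjusted p = 0.197) was 0.27 without that follicle.

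SMTN, smoothelin, an actin-binding protein of contractile smooth muscle, had 6.0, 5.9, 5.8 and 5.7 in large healthy follicles and 5.4 to 6.3 in small healthy ones, and the difference was -0.01 (95% interval -0.34 to 0.32). The pericyte genes did not pass either. RGS5, a regulator that shortens signalling through G proteins and a marker of pericytes, had 8.5, 7.5, 7.5 and 8.4 in large healthy follicles and 7.1 to 8.3 in small healthy ones. Its difference was 0.13 (95% interval -0.37 to 0.62, adjusted p = 0.761). PDGFRB, the receptor through which platelet-derived growth factor recruits pericytes, had 4.6, 4.2, 3.9 and 4.0 in large healthy follicles and 4.0 to 4.6 in small healthy ones, with a difference of -0.24 (95% interval -0.50 to 0.03, adjusted p = 0.261). For SMTN, RGS5 and PDGFRB the intervals leave out a 2-fold difference in signal in either direction. PDGFRB ran only from 3.9 to 4.6 over all 19 arrays, close to the array medians of 3.8 to 3.9. Its interval therefore bounds a weak signal and not the amount of its RNA.

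Large follicle 1 had the highest or joint highest signal of its group for 10 of the 10 genes, taking the brightest probe set of each. The mean over the 10 genes was 7.58 in this follicle and 6.82, 6.71 and 6.66 in large follicles 2, 3 and 4, against 6.07 to 6.94 in small healthy follicles. Without large follicle 1, 3 of the 12 member probe sets passed, the PLN probe set Bt.28162.1.S1_at being lost (0.62, adjusted p = 0.0713).

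In small atretic against small healthy follicles, 4 of the 10 genes were higher and 0 were lower. MYH11, DES, LMOD1 and PLN were higher, the last with all 3 probe sets, while ACTA2, TAGLN, CNN1, SMTN, RGS5 and PDGFRB did not pass. This comparison moved much of the transcriptome, with 16.9% of the 15470 probe sets tested passing as higher and 15.1% as lower, against 6 and 0 of the 12 member probe sets. Called as higher were 2 of the 12, where 2.08% of all were. The median difference over the member probe sets was 0.47, or 0.345 with the brightest probe set of each gene, and over all probe sets it was 0.01. Of the 6 member probe sets that passed, 3 belong to PLN. The members were chosen with earlier results known, so these shares too lend the list no independent support. The 10 small healthy follicles are the same as in the comparison above, so both sets of differences share them and are not independent.

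MYH11 had signals of 10, 8.0, 9.2, 9.9 and 10.3 in small atretic follicles, against 7.8 to 9.1 with a median of 8.15 in small healthy follicles. Atretic follicle 2 lay within the range of the healthy ones and the other 4 were above it. The difference was 1.12 ± 0.32 (SE), 2.17-fold, with an adjusted p of 0.0167 in limma, and the exact two-sided permutation test over 3003 splits gave p = 0.00866. It lost the threshold without atretic follicle 1 (0.99, adjusted p = 0.0508), without atretic follicle 5 (0.92, adjusted p = 0.0592) and against the rounded follicles alone (1.0, adjusted p = 0.137).

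The PLN probe set Bt.28162.3.S1_at had 4.6, 4.6, 4.3, 4.4 and 5.1 in small atretic follicles and 2.8 to 4.2 in small healthy follicles. The groups did not overlap, as was so for 1.42% of all probe sets in this direction, and the difference was 1.12 ± 0.20 (SE), 2.17-fold, with an adjusted p of 0.00192 in limma. The exact permutation p of 3.33e-04 is the smallest that 3003 splits can give.

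Probe set Bt.28162.2.A1_at of PLN had 6.4, 6.2, 6.0, 6.3 and 6.9 in small atretic follicles and 4.8 to 6.0, median 5.6, in small healthy follicles, with a difference of 0.87 ± 0.17 (SE) and an adjusted p of 0.00338. Probe set Bt.28162.1.S1_at had 4.4, 4.3, 3.9, 4.3 and 4.7 in small atretic follicles, against 2.9 to 4.0 in small healthy ones, with a difference of 0.77 ± 0.16 (SE) and an adjusted p of 0.00465. For both, 4 of 5 atretic follicles were above every small healthy follicle. All 3 probe sets passed in every alternative that could be run except against the rounded follicles alone, where the adjusted p ran from 0.0528 to 0.0678.

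DES had 4.4, 3.6, 3.9, 5.1 and 5.2 in small atretic follicles, whereas small healthy follicles had 3.2 to 4.3 with a median of 3.65. Of the atretic follicles, 3 of 5 were above all small healthy ones. The difference of 0.76 ± 0.25 (SE) had an adjusted p of 0.0288 in limma. It did not pass without atretic follicle 1 (0.77, adjusted p = 0.0548), 4 (0.60, adjusted p = 0.0849) or 5 (0.57, adjusted p = 0.101), nor against the rounded (0.66, adjusted p = 0.166) or the columnar follicles alone (0.86, adjusted p = 0.0637).

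LMOD1 had 4.6, 4.1, 4.6, 4.6 and 5.1 in small atretic follicles and 3.9 to 4.5, median 4.1, in small healthy ones, with 4 of 5 atretic follicles above all healthy ones. The difference was 0.47 ± 0.13 (SE) with an adjusted p of 0.0154 in limma, and it did not pass without atretic follicle 5 (0.35, adjusted p = 0.0527) or against the rounded follicles alone (0.44, adjusted p = 0.117). As a group of genes, the members were lowest in atretic follicle 2, which had the lowest or joint lowest signal of its group for 7 of the 10 genes, whereas atretic follicle 5 was highest for 6. Without atretic follicle 5, 3 of the 12 member probe sets passed, all of them of PLN.

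CNN1 had 5.7, 5.5, 5.6, 6.1 and 6.1 in small atretic follicles and 4.6 to 6.0 in small healthy ones, and the difference of 0.47 (95% interval 0.05 to 0.89) had an adjusted p of 0.0795. It passed without columnar follicle 5 (0.54, adjusted p = 0.0409). TAGLN had 8.6, 7.7, 8.3, 9.7 and 9.0 in small atretic follicles and 7.2 to 9.5 in small healthy ones, with a difference of 0.22 (95% interval -0.52 to 0.96).

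ACTA2 had 10.5, 9.7, 10.6, 11.3 and 11.1 in small atretic follicles and 9.9 to 11.7 in small healthy ones, so that the ranges overlapped over most of their length, and the difference was -0.04 (95% interval -0.65 to 0.57). The remaining differences were 0.13 for RGS5 (95% interval -0.29 to 0.55), -0.07 for PDGFRB (-0.29 to 0.15) and -0.12 for SMTN (-0.42 to 0.18). Of the 12 intervals 7 leave out a 2-fold difference in signal in either direction, among them those of ACTA2, TAGLN, CNN1, RGS5, PDGFRB and SMTN. For PDGFRB this again holds for a weak signal close to the array medians.

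**Figure D2:**
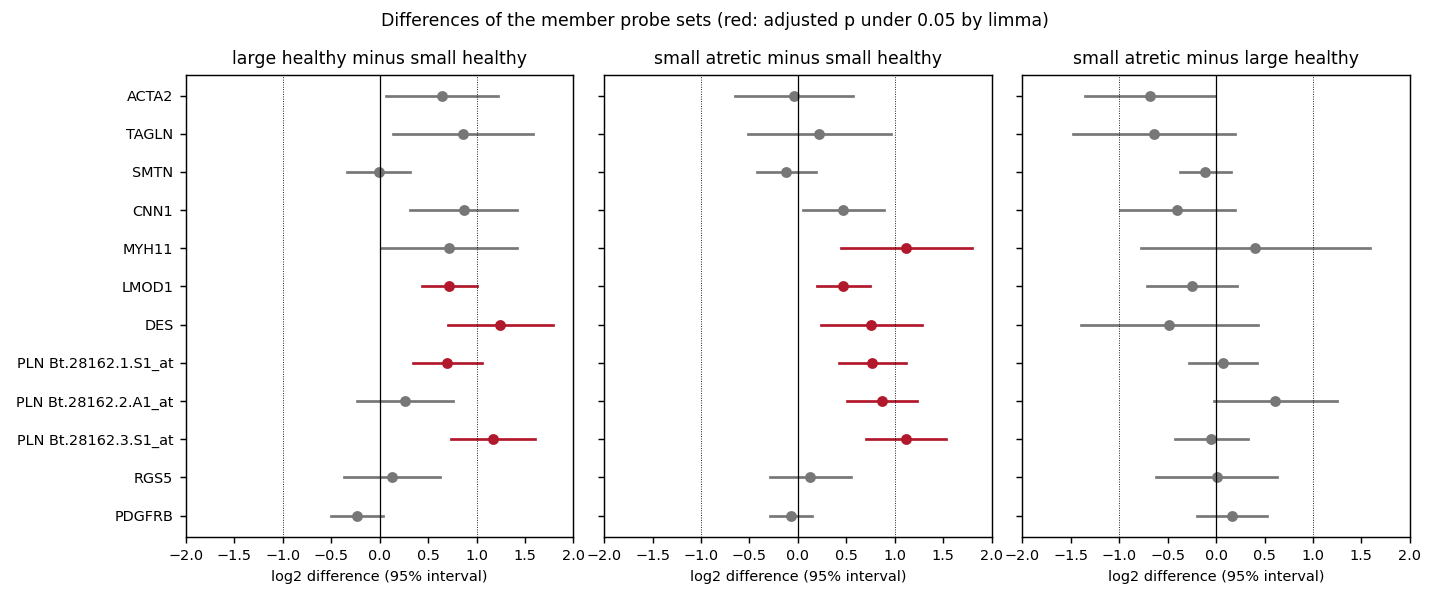
Log2 differences of the 12 member probe sets with their 95% intervals, for large healthy minus small healthy, small atretic minus small healthy and small atretic minus large healthy follicles, with probe sets that passed in red and dotted lines at a 2-fold difference. In the first panel 4 probe sets are red, in the second 6, and in the third 0.

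Between small atretic and large healthy follicles 0 of the 12 member probe sets passed. Here 0% of the 15326 probe sets tested passed by limma, although 2763 had an unadjusted p under 0.05, and a fit of all 19 arrays called 43 probe sets, with 0 members passing in either fit. ACTA2 had the lowest difference, -0.69 (95% interval -1.36 to -0.02, adjusted p = 0.271), with 9.7 to 11.3 in atretic and 11 to 11.6 in large healthy follicles. The highest was that of the PLN probe set Bt.28162.2.A1_at, 0.61 (95% interval -0.03 to 1.25, adjusted p = 0.293), with 6.0 to 6.9 in atretic and 5.4 to 6.7 in large healthy follicles. MYH11 differed by 0.41 with an interval of -0.78 to 1.59, which does not leave out a 2-fold higher signal in atretic follicles.

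Rounded and columnar small healthy follicles were compared because the shape of the basal granulosa cells is linked to the form of the basal lamina on which the theca rests. Of the members 0 of 12 passed, as did 0% of the 15570 probe sets tested by limma, 360 of which had an unadjusted p under 0.05. The member differences, rounded minus columnar, lay between -0.16 for SMTN and 0.24 for MYH11. MYH11 had 9.1, 8.1, 8.0, 8.7 and 8.5 in rounded follicles and 8.1, 8.2, 7.8, 8.0 and 9.1 in columnar ones. For 11 of the 12 probe sets the 95% interval leaves out a 2-fold difference in signal, and for MYH11 it ran from -0.53 to 1.01.

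The order of the group means differed from gene to gene. ACTA2 averaged 10.64 ± 0.62 in small atretic, 11.32 ± 0.32 in large healthy, 10.66 ± 0.47 in rounded and 10.70 ± 0.68 in columnar follicles (SD, n = 5, 4, 5 and 5), highest in the large ones. From high to low, MYH11 averaged 9.48 ± 0.92 in small atretic, 9.08 ± 0.94 in large healthy, 8.48 ± 0.45 in rounded and 8.24 ± 0.50 in columnar follicles. DES averaged 4.93 ± 0.71 in large healthy, 4.44 ± 0.71 in small atretic, 3.78 ± 0.20 in rounded and 3.58 ± 0.47 in columnar follicles. For these 3 genes, neighbours in the order of the means differed by less than the larger SD of the pair.

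Within the groups most contractile genes varied together, though not equally. After each group's mean was subtracted, Pearson's r over the 19 arrays was 0.94 for ACTA2 with TAGLN, 0.79 for TAGLN with SMTN and 0.78 for ACTA2 with SMTN. MYH11 correlated with LMOD1 (r = 0.86) and with DES (r = 0.80), and CNN1 with DES (r = 0.77). Correlations between these sets of genes were also positive, with r = 0.72 for ACTA2 with CNN1, 0.69 for TAGLN with CNN1, 0.61 for ACTA2 with DES and 0.55 for ACTA2 with MYH11, and SMTN with LMOD1 was among the lowest at 0.39. These are descriptions over arrays that share their normalization. Large follicle 1 was highest or joint highest of its group for 10 of the 10 genes, and columnar follicle 5 for 8. The part of single arrays in these correlations was not tested.

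The 3 PLN probe sets correlated with one another at r = 0.77 to 0.89, and with LMOD1 at 0.58 to 0.67. With ACTA2, TAGLN and SMTN their r ran from -0.22 to 0.11. RGS5 had r = 0.49 with CNN1, 0.40 with DES and 0.47 with the PLN probe set Bt.28162.2.A1_at, within the range of pairs of contractile genes, but 0.04 with TAGLN and 0.11 with MYH11. PDGFRB had r between -0.32 and 0.17 with the 7 contractile and filament genes and 0.09 with RGS5. Its r with the 3 PLN probe sets ran from 0.02 to 0.45. With the mean of the other members, r was 0.86 for CNN1, 0.85 for DES, 0.80 for LMOD1, 0.76 for MYH11, 0.72 for ACTA2, 0.62 for TAGLN and 0.62 for SMTN. It was 0.23 to 0.44 for the 3 PLN probe sets, 0.33 for RGS5 and -0.01 for PDGFRB.

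**Figure D3:**
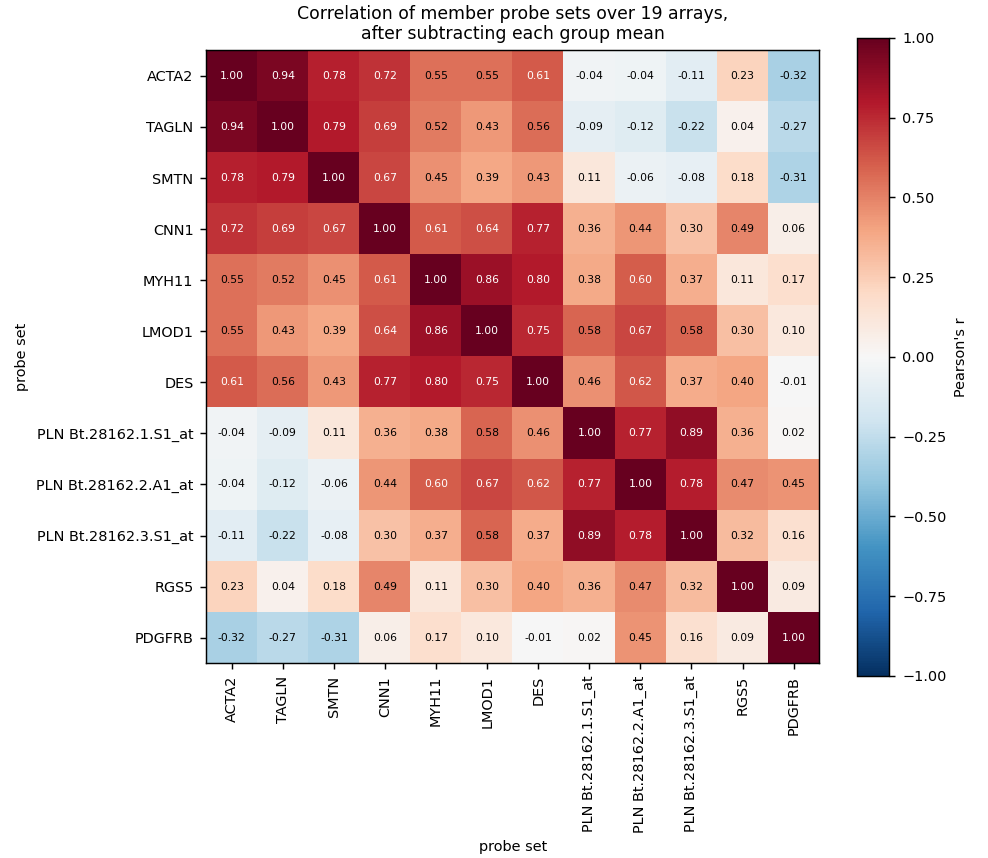
Pearson's r between the 12 member probe sets over the 19 arrays after the mean of each of the 4 groups was subtracted, with red for positive and blue for negative values. The highest values are among ACTA2, TAGLN and SMTN (0.78 to 0.94), among MYH11, LMOD1 and DES (0.75 to 0.86) and among the PLN probe sets (0.77 to 0.89), with CNN1 at 0.61 to 0.77 with the 6 other contractile and filament genes.

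The genes outside the list whose signals followed the mean of the members most closely within the groups were MYLK (r = 0.92), the kinase that starts smooth muscle contraction, CCN1 (r = 0.88), a secreted matricellular protein, PDLIM3 (r = 0.88), an actinin-binding protein of muscle, the cadherin CDH3 (r = 0.86) and BSCL2 (r = 0.85), a protein of lipid droplet formation. They were taken from 9716 probe sets of 7405 genes over 19 arrays, among which the median r was 0.00. For MYLK and PDLIM3 this was not the brightest probe set, the one used for these genes below.

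Markers of other cells varied together with the members. Within the groups, the mean over the 10 members had r = 0.54 with the mean of 9 endothelial genes, 0.61 with 10 immune genes and 0.49 with 8 fibroblast and matrix genes over the 19 arrays. It had r = -0.64 with 6 steroidogenic theca genes and -0.63 with 8 granulosa genes. Large follicle 1 had an endothelial mean of 6.29, against 5.56 to 6.17 in the other large healthy follicles, and atretic follicle 5 had 6.38, against 5.43 to 5.64 in the other atretic follicles, with a steroidogenic mean of 6.28, the lowest of the 19 arrays.

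By group, the endothelial mean was 5.72 (5.43 to 6.38) in small atretic, 5.91 (5.56 to 6.29) in large healthy and 5.45 (5.16 to 5.63) in small healthy follicles, and 0 of 8 endothelial genes tested passed between large and small healthy follicles. The fibroblast and matrix mean was 9.43 (9.10 to 9.69) in small atretic, 9.72 (9.51 to 9.84) in large healthy and 9.27 (9.01 to 9.69) in small healthy follicles, and 3 of 8 of these genes passed as higher in large than in small healthy follicles. The immune mean was 5.70 (4.93 to 6.19) in small atretic, 4.94 (4.61 to 5.39) in large healthy and 4.39 (3.75 to 4.88) in small healthy follicles. Of the 10 immune genes, 10 passed as higher in atretic and 1 in large healthy follicles, both against small healthy ones. The steroidogenic mean was 7.91 (6.28 to 8.85) in small atretic, 8.65 (8.02 to 9.65) in large healthy and 8.54 (7.62 to 9.12) in small healthy follicles. The granulosa mean was 5.62 (4.89 to 6.40) in small atretic, 6.52 (5.69 to 7.48) in large healthy and 6.09 (5.71 to 6.78) in small healthy follicles. The part of these cells, and of the poly-A controls, in the member results was not tested.

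**Figure D4:**
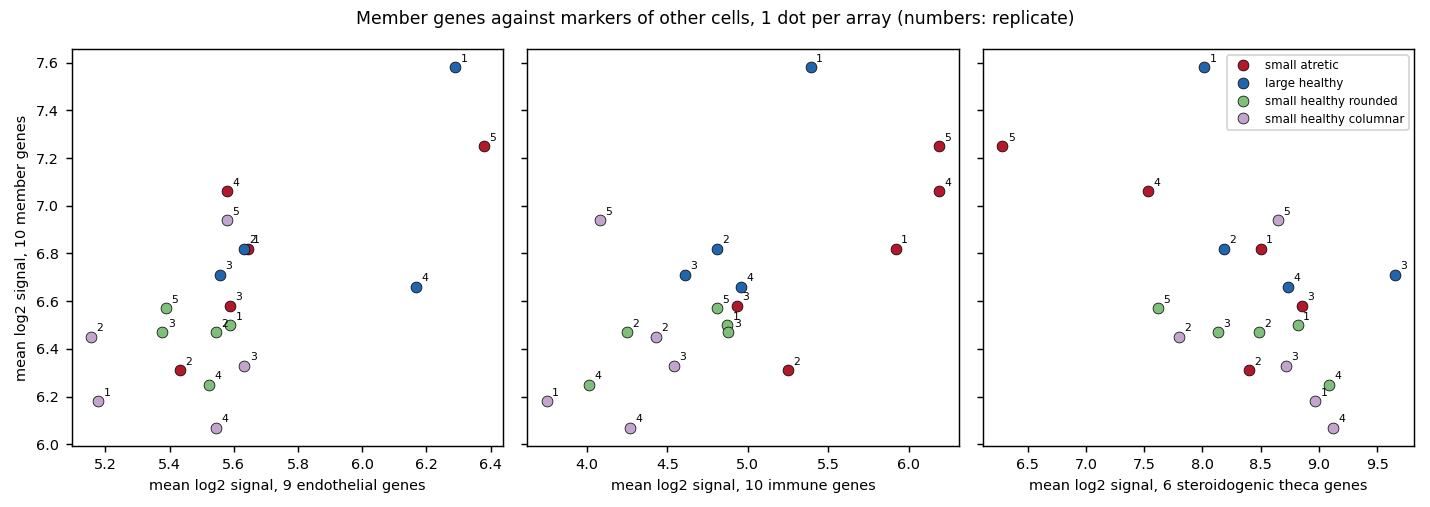
Mean log2 signal of the 10 member genes on each array against the means of 9 endothelial, 10 immune and 6 steroidogenic theca genes, 1 dot per array with its replicate number, colored by follicle group. Large follicle 1 (7.58) and atretic follicle 5 (7.25) have the highest member means and endothelial means of 6.29 and 6.38.

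Other genes of the contractile apparatus were measured with the brightest probe set of each. Their counts stand beside the 2.59% of all probe sets that passed as higher in large than in small healthy follicles, and the 16.9% that passed as higher and 15.1% as lower in atretic than in small healthy follicles. Of 9 genes for filaments and the control of myosin, 2 passed as higher in large than in small healthy follicles, and the median difference was 0.20, against -0.01 for all probe sets. TPM2, a tropomyosin lying along the actin filament, averaged 9.20 in large and 8.38 in small healthy follicles (difference 0.82, adjusted p = 0.0336). MYLK averaged 10.70 in large and 10.19 in small healthy follicles (0.51, adjusted p = 0.0385), and TPM1 (0.24) and CNN2 (0.33) did not pass. With the mean of all tested probe sets of a gene, 1 of the 9 passed.

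In atretic against small healthy follicles 1 of these 9 passed, MYLK, which averaged 10.54 in atretic and 10.19 in small healthy follicles (0.35, adjusted p = 0.0218). The median of the list was 0.07, and it was -0.11 with the mean of all probe sets of a gene.

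Of 16 genes of the cytoskeleton and its attachment, 2 passed as higher in large than in small healthy follicles. TNS1, tensin, which ties actin to integrins, averaged 7.10 in large and 6.41 in small healthy follicles (0.69, adjusted p = 0.00275), and FHL1, a LIM domain protein of muscle, averaged 7.70 in large and 6.98 in small healthy follicles (0.72, adjusted p = 0.0156). CSRP1 (0.42) and TLN1 (0.35) did not pass. In atretic against small healthy follicles 4 passed as higher, PDLIM3 (0.98), FHL2 (0.41), FHL1 (0.38) and TNS1 (0.37), and the integrin chain ITGB1 was lower (-0.22, adjusted p = 0.029). The median of the list was 0.01 in this comparison, as over all probe sets.

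Of 6 genes for transcription factors and cofactors of smooth muscle, 0 passed between large and small healthy follicles by limma. SRF, which binds the CArG boxes of contractile genes, averaged 2.98 in large and 3.21 in small healthy follicles, near the limit of detection, and had an adjusted p of 0.117. GATA6 (0.31), MEF2C (0.15) and KLF4 (0.33) did not pass either. In atretic against small healthy follicles 1 of the 6 passed, FOXO4 (0.74, adjusted p = 0.0117), a share close to that of all probe sets.

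Among 10 genes of calcium handling around phospholamban, the product of PLN, 3 were higher in large than in small healthy follicles. CAMK2D, a calmodulin-dependent kinase that phosphorylates phospholamban, averaged 6.80 in large and 5.83 in small healthy follicles (0.97, adjusted p = 0.00844). STIM1, the calcium sensor of the reticulum, averaged 5.13 in large and 4.45 in small healthy follicles (0.68, adjusted p = 0.00655), and KCNMB1, the smooth muscle beta subunit of the large-conductance potassium channel, averaged 4.03 in large and 3.23 in small healthy follicles (0.80, adjusted p = 0.00499).

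KCNMA1, the pore-forming subunit of that channel, averaged 3.25 in large and 4.46 in small healthy follicles and did not pass (-1.21, adjusted p = 0.108). In atretic against small healthy follicles CAMK2D was higher (0.57, adjusted p = 0.0123) and KCNMA1 was lower (-1.74, adjusted p = 0.0123), with an atretic mean of 2.72 that lies under the detection limit.

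Of 6 further pericyte genes, ANPEP, an aminopeptidase of pericytes and other stromal cells, was called as higher in large healthy follicles, averaging 5.00 against 3.96 in small healthy ones (1.04, adjusted p = 0.00562). The paper already lists ANPEP as higher in large follicles of this series, so its call gives no independent support. ANGPT1 (-0.52), CSPG4 (0.18) and NDUFA4L2 (-0.14) did not pass. In atretic against small healthy follicles 2 were lower, namely MCAM, also an endothelial adhesion molecule (5.60 in atretic and 6.25 in small healthy follicles, adjusted p = 0.033), and CSPG4, the NG2 proteoglycan of pericytes (3.82 in atretic and 4.15 in small healthy follicles, adjusted p = 0.0114). With the mean of all probe sets of a gene, 1 of the 6 passed.

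In the platelet-derived growth factor system only 2 genes besides PDGFRB were tested, and PDGFRA, a receptor of stromal fibroblasts, was higher in atretic follicles (8.40, against 7.59 in small healthy ones, adjusted p = 0.0123). PDGFRL (0.66) and PDGFRA (0.29) did not pass between large and small healthy follicles. Of 7 RGS proteins other than RGS5 (RGS1, RGS3, RGS7, RGS10, RGS14, RGS16 and RGS19), 0 passed between large and small healthy follicles by limma. RGS2 is not among them, because 1 probe set with that name as a synonym is annotated to the separate locus LOC513055. The paper lists this probe set as RGS2 and higher in large follicles, so the annotations differ. Looked at after its values were seen, it was called in large healthy follicles (6.85, against 5.11 in small healthy ones, 3.34-fold, adjusted p = 0.0182) and in atretic follicles (6.5, against 5.11 in small healthy ones, 2.62-fold, adjusted p = 0.0091). RGS1, an RGS protein of leukocytes, was called in atretic follicles (5.54, against 3.94 in small healthy ones, adjusted p = 0.0152), beside the immune genes given above.

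Of 4 receptors linked to contraction, AGTR1, the type 1 angiotensin receptor, was higher in large healthy follicles (6.43, against 5.70 in small healthy ones, adjusted p = 0.0499). Only 2 receptors of this list were tested in atretic against small healthy follicles, and AGTR1 did not pass there (0.48). EDNRA, an endothelin receptor of smooth muscle, was higher in atretic follicles (6.98, against 6.35 in small healthy ones, adjusted p = 0.0119). It differed by 0.23 between large and small healthy follicles without passing.

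**Figure D5:**
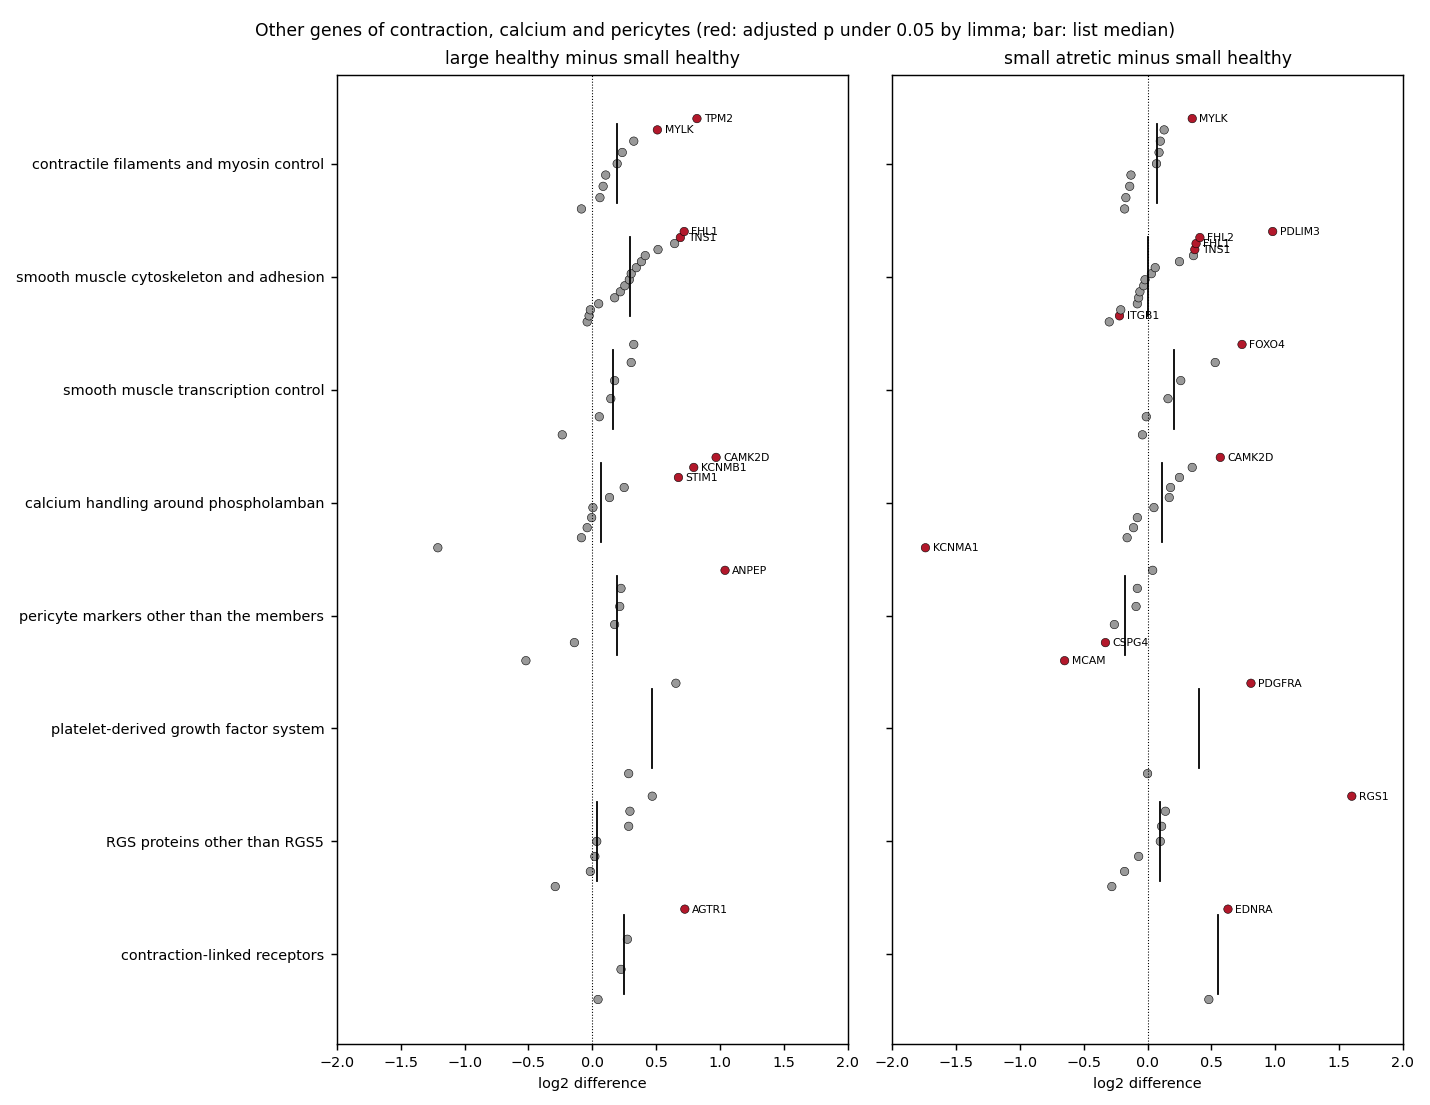
Log2 differences of the genes in 8 lists related to the members, 1 dot per gene, for large healthy minus small healthy and small atretic minus small healthy follicles, with genes that passed in red and named and a vertical bar at each list's median. CAMK2D is to the right in both panels (0.97 and 0.57), and KCNMA1 to the left (-1.21 and -1.74).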

How the data were processed

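Single-channel Affymetrix bovine arrays of 19 follicles were used. The authors summarized probes by RMA with quantile normalization and deposited log2 signals; the submitters' processing notes name Partek 6.5. The sources used here do not say whether normalization ran over all 19 arrays at once. The paper reports the healthy follicles only and does not cover the atretic ones. For all its samples it describes Trizol, RNeasy columns and 1 labeling input, unlike the sample records. Gene symbols came from the platform annotation, which gives 13317 probe sets 1 symbol, 86 several and 10724 none. All 10 member symbols were also in a newer RefSeq gene table.

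After removal of 111 control probe sets, groups were compared with limma 3.58.1 in R 4.3.3 by moderated linear models, each on the groups compared. Rounded and columnar follicles were compared in a fit of the 3 healthy groups. Exact permutation tests were two-sided. The scripts were tested on simulated data. The number of arrays limits the precision. Replicate numbers were not used to pair the samples in these models, and whether they pair follicles is not known.

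The members, lists and tests were chosen with earlier results of these data known. In each list, called genes or the 4 with the smallest p in large against small healthy follicles are named; list genes that passed without being called in atretic follicles were named after their values were seen. Alternatives changed the filter, test, normalization, samples and probe set choice.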

Additional observations from a re-analysis of the deposited data

Results flagged for a closer look

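Among 48 sets of values, 1 for each member probe set in each of the 4 groups, 3 held an array far from the rest of its group, where chance flags about 1 in 20. CNN1 was 7.1 in large healthy follicle 1, with the other large follicles at 5.8 to 6.0. The PLN probe set Bt.28162.2.A1_at was 6.7 in the same follicle, with the others at 5.4 to 5.5. CNN1 was 4.6 in rounded follicle 4, with the other rounded follicles at 5.5 to 5.6.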

How the results depend on the processing

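Between large and small healthy follicles 110 probe sets were called. The count was 71 with a detection limit of 5, 54 with the methods' ANOVA, 12 against rounded follicles alone, 59 without the 2 healthy arrays with the most CYP19A1, and 54 to 162 with 1 follicle left out. Member probe sets passing (4) were 0 with a limit of 5, at which DES, LMOD1, PDGFRB and 2 PLN probe sets were not tested, 0 in large against rounded follicles alone, 2 in large against columnar follicles alone, and 3 to 4 with 1 follicle left out. Between atretic and small healthy follicles 569 were called, 151 against rounded follicles alone, and 444 to 706 with 1 left out. Member probe sets passing (6) were 2 with a limit of 5, 0 against rounded follicles alone, and 3 to 7 with 1 left out. Between atretic and large follicles the fit of 19 arrays called 43, and leaving 1 out gave 0 to 92, while 0 members passed.

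Some small differences changed sign when 1 follicle was left out. For large against small healthy follicles these ranged from -0.05 to 0.28 for RGS5, -0.061 to 0.04 for SMTN and -0.057 to 0.38 for PLN Bt.28162.2.A1_at, and for atretic against small healthy follicles from -0.21 to 0.20 for ACTA2, -0.04 to 0.46 for TAGLN, -0.025 to 0.23 for RGS5 and -0.14 to 0.015 for PDGFRB. SMTN was also 0.07 in large against rounded follicles alone. The causes were not tested, although the comparisons with 1 granulosa shape use fewer samples.

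Same-numbered follicles of different groups had deviations correlated at -0.34 to 0.57, with a mean of 0.05. For follicles with different numbers the range was -0.67 to 0.51 and the mean -0.01. Such overlapping ranges cannot decide whether the replicate number pairs follicles. With the replicate number as a block, 6 member probe sets passed between large and small healthy follicles, and SMTN was 0.08. In that fit ACTA2 (0.85, adjusted p = 0.0143), TAGLN (1.09, adjusted p = 0.00978) and CNN1 (0.99, adjusted p = 0.0438) passed by limma. PLN Bt.28162.1.S1_at did not (0.65, adjusted p = 0.075).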
